A study of Mus musculus with 2 samples.

Results

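The respiratory chain genes of the mouse right ventricle were followed here across cell types, with the subunits encoded in the nucleus set against those encoded by mitochondrial DNA. Members were chosen by symbol: those starting with Ndufa, Ndufb, Ndufc, Ndufs, Ndufv, Sdh, Uqcr or Atp5, the nuclear subunits named Cox4 to Cox8, and the protein-coding mt- genes, each with at least 50 unique molecular identifier (UMI) counts over all barcodes. Of the 27999 features in the table, 109 matched by name and 108 had enough counts, 95 of them nuclear and 13 mitochondrially encoded. The 1 feature left out was Cox8c, on chromosome 12, with 0 UMIs. The nuclear members were 36 genes of complex I, 4 of complex II, 8 of complex III, 18 of complex IV, 15 of complex V (ATP synthase), 13 assembly factors and Cox7a2l, a factor for supercomplexes. Ndufa4 and Ndufa4l2 were counted with complex IV, where the Ndufa4 protein is found.

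The study removed p300 and CBP, related acetyltransferases, from the hearts of pups, with a title on how right ventricular cardiomyocytes handle calcium before puberty. Both libraries belong to 1 group of C57/BL6J mice with the genotype CBP flox/flox, p300 flox/flox and Trap flox/flox. AAV9, a virus used to reach the heart, was given on postnatal day 1, and the right ventricle was taken on postnatal day 21. No library without the knockout was analysed, so every comparison below is between cell types that all come from injected animals. The sources used here do not say what the AAV9 carried, which promoter drove it, or how many animals went into a library. Whether the 2 libraries come from separate animals is not stated either. The tests below take out the overall difference between the libraries. Their p-values measure only how differences between classes vary from 1 library to the other. The libraries differed in makeup: cardiomyocyte-like cells were 63.3% of kept cells in library 1 and 25.8% in library 2, and cells with hepatocyte transcripts numbered 272 and 0. A cardiomyocyte-like cluster led by the Y-linked genes Uty, Eif2s3y and Kdm5d held 7 cells of library 1 and 770 of library 2. Both were made from frozen tissue treated with collagenase and enriched for CD45 with beads, then run as 3′ droplet libraries.

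The respiratory chain carries electrons from NADH (complex I) and succinate (complex II) through complexes III and IV to oxygen, and complex V uses the resulting proton gradient to make ATP. Complexes I, III, IV and V are built from subunits of both genomes, while complex II is wholly nuclear. Nuclear messages are translated in the cytosol, whereas mitochondrial messages are made and translated inside the organelle. The adult heart depends on this pathway for most of its ATP, and several complex IV subunits have an isoform made mainly in heart and skeletal muscle.

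Promoters are shown first because the nuclear members are scattered over the genome and are known to share activators, among them NRF1, GABPA (an ETS factor), YY1 and the estrogen-related receptors. RefSeq promoters (build GRCm38.p6, the first listed for a symbol, 300 bases of which 250 lie before the start) were found for 77 of the 95 nuclear members. No entry was matched for 18 members, among them Atp5a1, Atp5f1, Atp5s, Atp5sl, Cox4i1, Cox4i2, Cox6a2, Cox6c, Ndufa2, Ndufa4l2, Ndufaf6, Ndufb9, Ndufs1, Sdhc, Uqcrb, Uqcrc2 and Uqcrq. The NRF1 core, GCGCANGCG on either strand, was in 23 of the 77 (29.9%), against 6.47% of all 27025 promoters of the same length. An ETS core, CCGGAAG, was in 19 (24.7%), against 9.12% of all promoters. The YY1 core AAGATGG was in 9 (11.7% against 6.48%), and the estrogen-related receptor motif TCAAGGTCA was in 2 (2.60% against 0.407%). The ETS and YY1 letters can share the bases AAG. Of the 77, 9 held at least 2 of the 4 motifs and 34 held none in this window. A match of letters is a description and not a binding site. The motif shares also follow base composition, which was not matched between members and all promoters.

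The windows below show the NRF1 core in 8 of the members whose core lies before the start site, from complexes I, II, IV and V and an assembly factor. Each is 30 bases, written 5′ to 3′ on the gene's strand, with the core in capitals. They lie at chr4:123718265-123718294 (Ndufs5), chr6:24527697-24527726 (Ndufa5), chr13:74350319-74350348 (Sdha), chr9:50603909-50603938 (Sdhd), chr5:115349101-115349130 (Cox6a1), chr9:44920963-44920992 (Atp5l), chr11:115420041-115420070 (Atp5h) and chr1:24005665-24005694 (Sdhaf4), with Atp5l and Sdhaf4 carrying the core in the reverse direction. All 8 genes are on the minus strand.
Ndufs5: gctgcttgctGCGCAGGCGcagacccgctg
Ndufa5: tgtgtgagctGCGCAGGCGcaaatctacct
Sdha: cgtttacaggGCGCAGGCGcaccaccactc
Sdhd: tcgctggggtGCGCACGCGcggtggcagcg
Cox6a1: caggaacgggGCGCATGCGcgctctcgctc
Atp5l: aaccaataaCGCATGCGCatttcccccact
Atp5h: gaccccgacgGCGCAGGCGccgcgcccgcc
Sdhaf4: ccctcgttgaCGCCTGCGCagagggcgcgg

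Ndufaf4, a complex I assembly factor whose level differed most between cardiomyocyte-like and other cells after Cox7b2 among the members with a promoter in the table, is shown with its 250 upstream bases at chr4:24897833-24898082 (plus strand). Capitals mark a palindrome that holds the NRF1 core on both strands, beginning 113 bases before the start.
Ndufaf4: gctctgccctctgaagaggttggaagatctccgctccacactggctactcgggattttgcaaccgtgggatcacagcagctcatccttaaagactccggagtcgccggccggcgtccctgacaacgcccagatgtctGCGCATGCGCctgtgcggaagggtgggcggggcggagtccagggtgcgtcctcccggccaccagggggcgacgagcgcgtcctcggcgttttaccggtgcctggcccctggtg
Cox8b, the muscle isoform of a small complex IV subunit, is shown for contrast at chr7:140900447-140900696 (minus strand). None of the 4 motifs was found in it, so it has no capitals.
Cox8b: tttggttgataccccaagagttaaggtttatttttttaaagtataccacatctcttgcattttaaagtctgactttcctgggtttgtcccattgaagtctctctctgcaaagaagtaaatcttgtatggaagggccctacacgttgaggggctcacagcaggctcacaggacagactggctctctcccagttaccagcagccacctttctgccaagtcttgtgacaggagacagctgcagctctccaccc

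Library 1 held 12736 barcodes and 57982200 UMIs and library 2 held 9447 barcodes and 50199793 UMIs, with 17 barcodes shared. Cells were grouped by marker genes, leaving respiratory chain genes out of the clustering, and 7 classes had at least 50 cells in both libraries. They were cardiomyocyte-like (7617 and 2245 cells in libraries 1 and 2), fibroblast-like (1116 and 2472), endothelial-like (644 and 960), endocardial-like (123 and 978), epicardial or mesothelial-like (50 and 589), pericyte-like (380 and 410) and macrophage-like (259 and 487). Macrophage-like and lymphocyte-like cells were few despite the CD45 enrichment in the protocol. The clusters that make up the cardiomyocyte-like class came almost wholly from 1 library each, apart from the smallest, although all 12 cardiomyocyte markers passed in every one of them. Cardiomyocyte-like cells had a median of 4858 and 7397 UMIs, the other classes 1500 to 4939. Malat1, an RNA kept in the nucleus, made up 61373 and 50774 CPM (counts per 1000000 UMIs) in cardiomyocyte-like cells, and 19846 to 40456 CPM and 18857 to 37479 CPM in the others. Mitochondrially encoded genes made up only 0.518% and 0.390% of UMIs. Barcodes are called cells here, and whether they hold whole cells or nuclei was not tested. Cardiomyocyte markers summed to 59576 and 70125 CPM in cardiomyocyte-like cells, but also to 8693 to 13410 CPM in the 6 other classes of library 1 and 2170 to 4702 CPM in those of library 2. The cardiomyocyte transcripts found in other classes therefore differed between the libraries. Their part in the results below was not tested, nor was that of Malat1 or depth.

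Mitochondrially encoded transcripts took a lower share of UMIs in cardiomyocyte-like cells than in any other of the 7 classes, in both libraries. The share of nuclear respiratory chain transcripts was at a middle level there in library 1 and the highest in library 2. These are shares of UMIs, and amounts per cell were not compared. The 13 mitochondrially encoded genes summed to 2611 and 1301 CPM in cardiomyocyte-like cells of libraries 1 and 2. In library 1 the 6 other classes held 6703 to 18844 CPM, and in library 2 they held 2991 to 8363 CPM, all above the cardiomyocyte-like value of the same library. Epicardial or mesothelial-like cells stood highest in library 1 (18844 CPM, from 50 cells) and endothelial-like cells in library 2 (8363 CPM). The 95 nuclear genes summed to 7963 and 6437 CPM in cardiomyocyte-like cells. In library 1 endothelial-like (10001 CPM), epicardial or mesothelial-like (10091 CPM), pericyte-like (8560 CPM) and macrophage-like cells (8189 CPM) lay above them, with endocardial-like (7511 CPM) and fibroblast-like cells (6876 CPM) below. In library 2 all 6 lay below, from 3656 CPM in fibroblast-like to 5663 CPM in endothelial-like cells. These sums are given as values, with no test.

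The ratio of nuclear to mitochondrially encoded UMIs was 3.05 and 4.95 in cardiomyocyte-like cells. It was 1.28 and 1.51 in pericyte-like cells, 1.13 and 0.861 in macrophage-like cells, 1.01 and 0.839 in fibroblast-like cells, and 1.01 and 0.677 in endothelial-like cells. Endocardial-like (0.513 and 0.759) and epicardial or mesothelial-like cells (0.535 and 0.665) had the lowest ratios. Cardiomyocyte-like cells were thus above every other class in both libraries, and pericyte-like cells came second in both. The same order at the top held within each complex of mixed origin. For complex IV, nuclear UMIs per mitochondrially encoded UMI were 1.32 and 1.79 in cardiomyocyte-like cells and 0.211 to 0.584 elsewhere. For complex V they were 6.31 and 11.1, against 0.844 to 3.32 elsewhere. Complex I gave 2.95 and 5.03 against 0.681 to 1.98, and complex III 3.61 and 4.91 against 0.748 to 1.67. The ratio compares classes only, since counts from 3′ ends do not measure how many molecules of unlike genes are present.

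**Figure D1:**
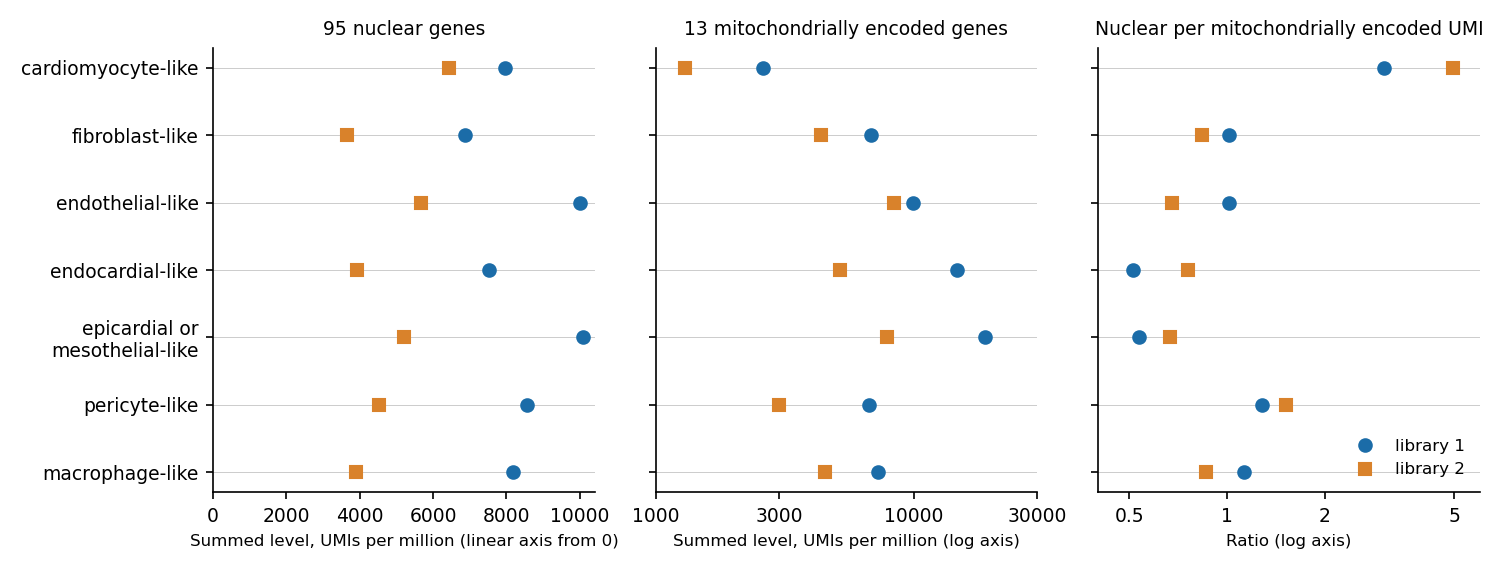
Summed level of the 95 nuclear genes (left, CPM, linear axis from 0), of the 13 mitochondrially encoded genes (middle, CPM, log axis) and their ratio (right, log axis) in the 7 classes, with 1 point per library. Cardiomyocyte-like cells have the lowest mitochondrially encoded sum (2611 and 1301) and the highest ratio (3.05 and 4.95) in each library.

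Between the libraries, nuclear respiratory chain levels were higher in library 1 in all 7 classes. The ratio of library 1 to library 2 was 1.24 for the nuclear sum in cardiomyocyte-like cells and 1.77 to 2.11 in the other classes. In cardiomyocyte-like cells 75 of the 95 nuclear members were higher in library 1, and in the other classes 80 to 90 were. The share of all genes higher in library 1 was not computed, so these counts cannot be read as particular to the members. The mitochondrially encoded sum was 2.01 times as high in library 1 in cardiomyocyte-like cells and 1.18 to 2.83 times in the others. Cardiomyocyte markers moved the other way in cardiomyocyte-like cells (a ratio of 0.850) but were 2.85 to 4.5 times as high in library 1 in the other classes. Both libraries carry the same labels, and what sets them apart cannot be told from the labels.

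Single genes were tested with edgeR on UMIs summed per class and library, each class against the mean of the rest, with library as a block. In cardiomyocyte-like cells 71 of the 95 nuclear members were higher, 6 were lower and 18 did not pass (adjusted p under 0.05 over 14311 genes). Of all genes tested, 35.5% were higher and 31.2% lower. The median log2 difference of the nuclear members was 0.68, against 0.03 for all genes tested, and it was 0.45 in library 1 and 0.88 in library 2. With library 1 scaled on its own, without a fit, the median was 0.33. All 13 mitochondrially encoded members were lower, with a median of -1.10.

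How many nuclear members count as higher depends on the scaling between classes. The TMM scaling used sets the bulk of genes equal between classes, which leaves the median gene near 0. With plain CPM, all genes had a median of -0.56, with 18.9% higher and 51.0% lower, and the nuclear members split into 32 higher and 18 lower, with a median of 0.08. With DESeq2 size factors the split was 58 and 6, with medians of -0.11 for all genes and 0.54 for the nuclear members. Under each of these scalings the nuclear members lay above the median gene, and the 13 mitochondrially encoded members were all lower. Nuclear directions below are relative to the typical gene of the class.

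**Figure D2:**
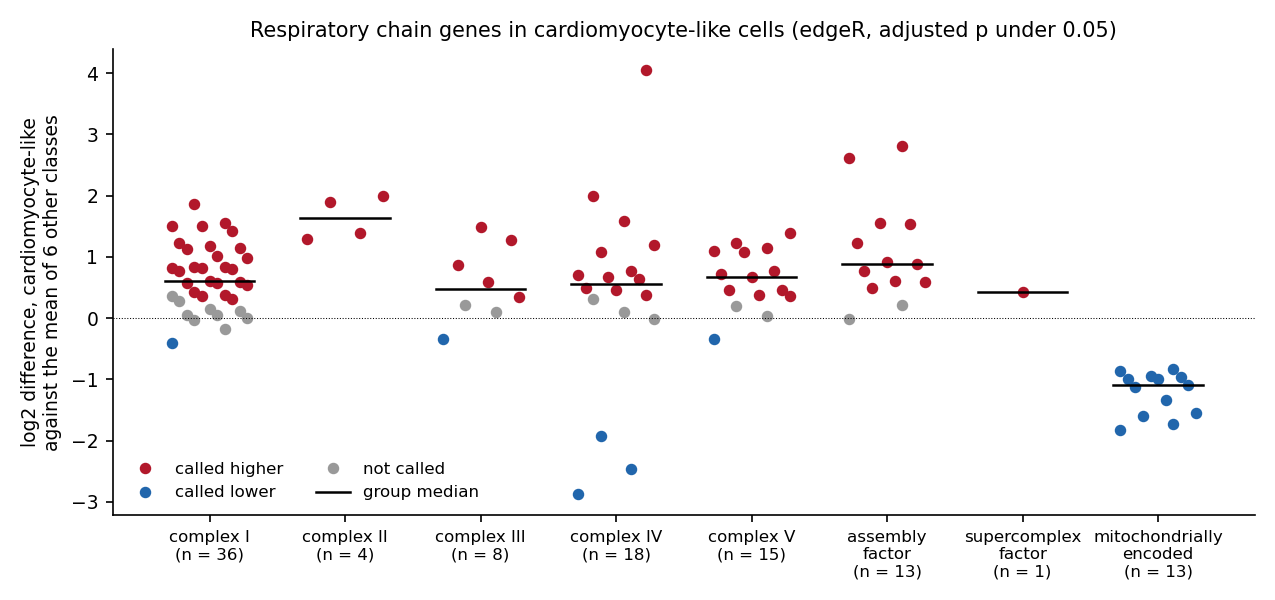
Log2 difference of each of the 108 genes between cardiomyocyte-like cells and the mean of 6 other classes, grouped by complex, with a bar at each group's median and color for the call (edgeR, adjusted p under 0.05). Nuclear groups lie mostly above 0, complex II with all 4 genes called higher, and the 13 mitochondrially encoded genes lie between -0.83 and -1.82.

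Complex I takes electrons from NADH. Of its 36 nuclear members 26 were higher in cardiomyocyte-like cells, 1 lower and 9 neither, with a median log2 difference of 0.60. Ndufs3, a core subunit of the arm that reduces ubiquinone, stood at 144 and 122 CPM in cardiomyocyte-like cells and at 40.1 to 81.5 CPM in the other classes. The groups did not overlap, and its log2 difference was 1.87 (SE 0.12, adjusted p = 2.6e-09). Ndufs1, the large iron-sulfur subunit of the NADH-binding arm, stood at 196 and 203 CPM against 78.7 to 136 CPM, a log2 difference of 1.56 (SE 0.14, adjusted p = 1.0e-07). Ndufs4, an accessory subunit needed for a stable NADH-binding arm, stood at 283 and 301 CPM against 110 to 217 CPM, a log2 difference of 1.51 (SE 0.12, adjusted p = 2.0e-08). The member called lower was Ndufa2, a small accessory subunit, at 40.1 and 24.0 CPM against 30.9 to 135 CPM elsewhere. Its values overlapped across classes, and the log2 difference was -0.41 (SE 0.14, adjusted p = 0.015). Ndufs1 and Ndufs3 overlap genes on the opposite strand, as does Ndufa2, and the sources used here do not say whether counting used strand.

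Complex II, succinate dehydrogenase, also belongs to the tricarboxylic acid cycle. All 4 of its members were higher, with a median log2 difference of 1.64, the highest median of the 5 complexes. Sdhc, a membrane anchor, stood at 190 and 169 CPM in cardiomyocyte-like cells and at 43.6 to 120 CPM in the others. Its log2 difference was 1.99 (SE 0.13, adjusted p = 3.3e-09). Sdhb, the iron-sulfur subunit, stood at 128 and 123 CPM against 31.8 to 114 CPM, the macrophage-like cells of library 1 giving the 114, with a log2 difference of 1.89 (SE 0.12, adjusted p = 4.5e-09). Sdha, the flavoprotein, stood at 207 and 248 CPM against 105 to 166 CPM, and Sdhd, the other anchor, at 39.5 and 34.8 CPM against 13.9 to 36.0 CPM. Their log2 differences were 1.40 (SE 0.12, adjusted p = 1.2e-07) and 1.29 (SE 0.15, adjusted p = 1.5e-06). Sdha, Sdhb and Sdhc did not overlap between cardiomyocyte-like cells and the rest, and Sdhd did.

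Complex III passes electrons from ubiquinol to cytochrome c. Of its 8 nuclear members 5 were higher, 1 lower and 2 neither, with a median of 0.47. Uqcrc1, a core subunit of its matrix side, stood at 110 and 100 CPM against 35.0 to 118 CPM, with a log2 difference of 1.5 (SE 0.15, adjusted p = 3.1e-07). Uqcrh, the hinge protein beside cytochrome c1, stood at 140 and 124 CPM against 68.2 to 184 CPM, and its log2 difference was 0.86 (SE 0.13, adjusted p = 4.2e-05). For both, some other class of library 1 stood higher in CPM than cardiomyocyte-like cells. Uqcr11, a small subunit at 75.9 and 35.9 CPM, was the member called lower, with a log2 difference of -0.33 (SE 0.13, adjusted p = 0.036).

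Complex IV, cytochrome c oxidase, reduces oxygen. Of its 18 nuclear members 12 were higher, 3 lower and 3 neither, with a median of 0.57 and the widest range of the nuclear groups. Cox7b2, a paralogue of Cox7b on chromosome 5 (71442824 to 71548205, minus strand, in GRCm38), stood at 16.4 and 19.8 CPM in cardiomyocyte-like cells and at 0 to 7.48 CPM in the others. It had the largest difference of all members, 4.05 on the log2 scale (SE 0.32, adjusted p = 3.2e-08). Cox7b itself, a subunit needed for assembly, stood at 330 and 183 CPM against 49.9 to 191 CPM, with a log2 difference of 2.0 (SE 0.12, adjusted p = 1.5e-09). Within each library its level was highest in cardiomyocyte-like cells. Cox5a, a matrix-facing subunit, stood at 110 and 123 CPM against 40.1 to 115 CPM, with a log2 difference of 1.59 (SE 0.15, adjusted p = 2.1e-07). Cox4i1, the common form of subunit 4, stood at 144 and 97.9 CPM against 91.4 to 431 CPM, and its log2 difference of -0.02 (SE 0.14) did not pass (adjusted p = 0.95). Cox6c, with a log2 difference of 0.46 (SE 0.15, adjusted p = 0.013), was -0.14 with plain CPM.

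The 3 complex IV members called lower in cardiomyocyte-like cells were Ndufa4l2, Cox4i2 and Cox6b2, alternative isoforms. Ndufa4l2 stood at 0.770 and 0.782 CPM (log2 difference -2.87, SE 0.32, adjusted p = 1.0e-06) and Cox4i2 at 0.498 and 0.365 CPM (-2.46, SE 0.42, adjusted p = 1.1e-04). Both were high in 1 other class, described below with the isoforms. Cox6b2, known from testis, was at 0.815 and 0.469 CPM against 0 to 11.2 CPM, and its log2 difference was -1.93 (SE 0.53, adjusted p = 0.0047). Its counts were low, 36 and 9 UMIs in cardiomyocyte-like cells and 0 to 35 elsewhere, and the values overlapped. The 35 came from epicardial or mesothelial-like cells of library 2. Over 13 alternatives the log2 difference ran from -2.53 to -0.61.

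ATP synthase had 12 of 15 nuclear members higher, 1 lower and 2 neither, with a median of 0.68. Its alpha subunit gene Atp5a1 stood at 305 and 250 CPM in cardiomyocyte-like cells against 105 to 381 CPM, and its beta subunit gene Atp5b at 216 and 203 CPM against 116 to 352 CPM. Their log2 differences were 1.09 (SE 0.15, adjusted p = 1.5e-05) and 0.72 (SE 0.14, adjusted p = 4.0e-04). In both cases the ranges overlapped, since several other classes of library 1 stood higher in CPM. Atp5e, the epsilon subunit, was the member called lower, at 75.5 and 34.3 CPM against 41.1 to 296 CPM (log2 difference -0.34, SE 0.13, adjusted p = 0.032).

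Assembly factors help the complexes to form without being part of them, and 11 of 13 were higher, 0 lower, with a median of 0.88. Ndufaf4 stood at 165 and 134 CPM in cardiomyocyte-like cells. In the other classes it ranged from 35.0 to 62.2 CPM (library 1) and from 17.1 to 40.2 CPM (library 2), so the groups did not overlap. Its log2 difference was 2.81 (SE 0.11, adjusted p = 1.6e-10). Atp5sl, named for its likeness to an ATP synthase factor and since assigned to complex I assembly, stood at 66.4 and 51.0 CPM against 5.21 to 31.8 CPM, with a log2 difference of 2.61 (SE 0.17, adjusted p = 4.3e-09). Ndufaf6, another complex I factor, stood at 33.9 and 42.4 CPM against 14.3 to 35.1 CPM (log2 difference 1.56, SE 0.14, adjusted p = 1.4e-07). Sdhaf2, which helps to attach flavin to Sdha, differed by 0.88 (SE 0.16, adjusted p = 1.4e-04). Cox7a2l, which links complexes III and IV, differed by 0.43 (SE 0.12, adjusted p = 0.0058), a value that was -0.17 with plain CPM.

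Mitochondrially encoded members are cut from long shared transcripts, so they are not independent of one another. All 13 were lower in cardiomyocyte-like cells with TMM, plain CPM and DESeq2 size factors. mt-Co2, a catalytic subunit of complex IV, stood at 219 and 140 CPM in cardiomyocyte-like cells against 410 to 2315 CPM, with a log2 difference of -1.82 (SE 0.25, adjusted p = 1.3e-05). mt-Co1, which holds the site of oxygen reduction, stood at 498 and 265 CPM against 512 to 3021 CPM, with a log2 difference of -1.13 (SE 0.21, adjusted p = 1.8e-04), and neither gene overlapped between the groups. mt-Co3 differed by -1.59, mt-Atp6 by -1.73, mt-Nd6 by -1.54 and mt-Cytb by -1.33. The complex I subunits mt-Nd1 (-1.10), mt-Nd4l (-1.0), mt-Nd3 (-1.0), mt-Nd4 (-0.95), mt-Nd5 (-0.86) and mt-Nd2 (-0.83) differed less, as did mt-Atp8 (-0.95). mt-Atp8 shares bases with mt-Atp6, and mt-Nd4l with mt-Nd4, so counts of these pairs cannot be fully told apart.

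Within the mitochondrially encoded sum, mt-Co3 took 21.2% and 18.0% in cardiomyocyte-like cells and mt-Co1 took 19.1% and 20.4%. mt-Co2 took 8.37% and 10.8% there, less than in any of the 6 other classes of the same library, which ranged from 10.0% to 13.2% in library 1 and from 13.7% to 15.9% in library 2. mt-Nd2 went the other way, with 7.56% and 8.22% in cardiomyocyte-like cells against 4.63% to 5.50% and 5.11% to 6.85%.

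The mean of the other classes mixes unlike cells, so cardiomyocyte-like cells were also compared with each class. These comparisons share the cardiomyocyte-like sums. Against fibroblast-like cells 75 nuclear members were higher and 3 lower (29.9% and 27.5% of all genes), and 8 of the 13 mitochondrially encoded members were lower. Against macrophage-like cells 69 were higher and 4 lower (29% and 28.6%), and 9 mitochondrially encoded members were lower. Against endocardial-like cells the counts were 62 and 1 (27.6% and 25.7%), with all 13 lower. Against pericyte-like cells 52 were higher and 3 lower (25.5% and 20.7%), and only 5 of the 13 passed as lower. Epicardial or mesothelial-like cells gave 42 and 9 (30% and 30.4%), and endothelial-like cells 39 and 7 (30.4% and 26%), each with all 13 mitochondrially encoded members lower. The endothelial-like comparison had the smallest median nuclear difference, 0.25, and the fibroblast-like comparison the largest, 0.97.

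Gene span moved with the result. The nuclear members were split into 4 bins by genomic span, with limits at 4.23, 7.67 and 13.4 kb. In the shortest bin 11 of 24 members were higher in cardiomyocyte-like cells and 5 lower (median 0.26). The middle bins gave 18 higher and 0 lower of 24 (median 0.69) and 18 higher and 1 lower of 23 (median 0.61), and in the longest bin all 24 were higher (median 1.23). All tested genes, split at the same limits, had medians of -0.36, -0.12, -0.03 and 0.11. In these bins 21.6%, 27.7%, 29.6% and 39.1% were higher and 39.0%, 32.9%, 30.6% and 30.1% lower. The outer bins of all genes are open, whereas the members run from 0.953 to 156 kb, so the longest bin also holds longer genes. With plain CPM the shortest bin turned, with 3 members higher and 9 lower (median -0.33). The middle bins then gave 6 higher and 5 lower (median 0.09) and 5 higher and 4 lower (median 0.02), and the longest 18 higher and 0 lower (median 0.64). Across the 95 members Spearman's rho between span and log2 difference was 0.55, while across 14261 genes it was 0.06. Genes share libraries and are not independent, so both are descriptions. Short genes here include the muscle isoforms Cox6a2 (0.953 kb), Cox8b (1.5 kb) and Cox7a1 (1.94 kb).

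Isoform use was described by the share of one isoform in its pair. In the pericyte-like class Cox4i2, the form of subunit 4 known from lung and from low oxygen, took 29.2% of Cox4i1 and Cox4i2 UMIs in library 1 (59 of 202, 95% Clopper-Pearson interval 23.0 to 36.0) and 43.0% in library 2 (83 of 193, 35.9 to 50.3). In the 6 other tested classes the share was at most 3.52%. Cox4i2 lies on chromosome 2 (152754173 to 152765037, plus strand). It stood at 94.0 and 81.4 CPM in pericyte-like cells and at 0 to 7.27 CPM elsewhere, and its log2 difference was 5.75 (SE 0.25, adjusted p = 1.3e-10). Intervals cover counting error only.

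Ndufa4l2, a relative of Ndufa4 that is switched on by hypoxia-inducible factors, was high in the same class. It took 52.1% of Ndufa4 and Ndufa4l2 UMIs in library 1 (74 of 142, 43.6 to 60.6) and 68.2% in library 2 (131 of 192, 61.1 to 74.7) in pericyte-like cells. Fibroblast-like cells came next, with 7.95% and 13.6%. Its level was 118 and 129 CPM in pericyte-like cells and 0 to 10.0 CPM in the other 6 classes, with a log2 difference of 4.94 (SE 0.22, adjusted p = 2.2e-10). With each cell thinned to 1000 UMIs, 9.65% and 10.2% of pericyte-like cells held an Ndufa4l2 UMI (16.6% and 26.3% before thinning), against at most 1.35% in any other tested class. For Cox4i2 the thinned shares were 10.9% and 7.87% (13.7% and 18.3% before), against at most 0.933%. Thinning left out 69 and 16 shallower pericyte-like cells. Ndufa4l2 lies on chromosome 10 (127514967 to 127517154, plus strand) and overlaps Shmt2 on the opposite strand.

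Smooth muscle-like cells, too few for the test (76 and 24), had a Cox4i2 share of 3.94% and 16.1% and an Ndufa4l2 share of 8.16% and 9.09%. Their Cox4i2 level was 32.5 and 53.6 CPM, between pericyte-like cells and the rest. Apart from these isoforms, pericyte-like cells differed little from the mean of the other classes in nuclear members: 2 of 95 were higher and 1 lower, where 11% and 8.8% of all genes were. The 2 were Cox4i2 and Ndufa4l2, and the 1 was Atp5g2, which encodes the c subunit of the ATP synthase ring (log2 difference -0.79, SE 0.19, adjusted p = 0.0074). Of the mitochondrially encoded members 1, mt-Atp6, was lower there.

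**Figure D3:**
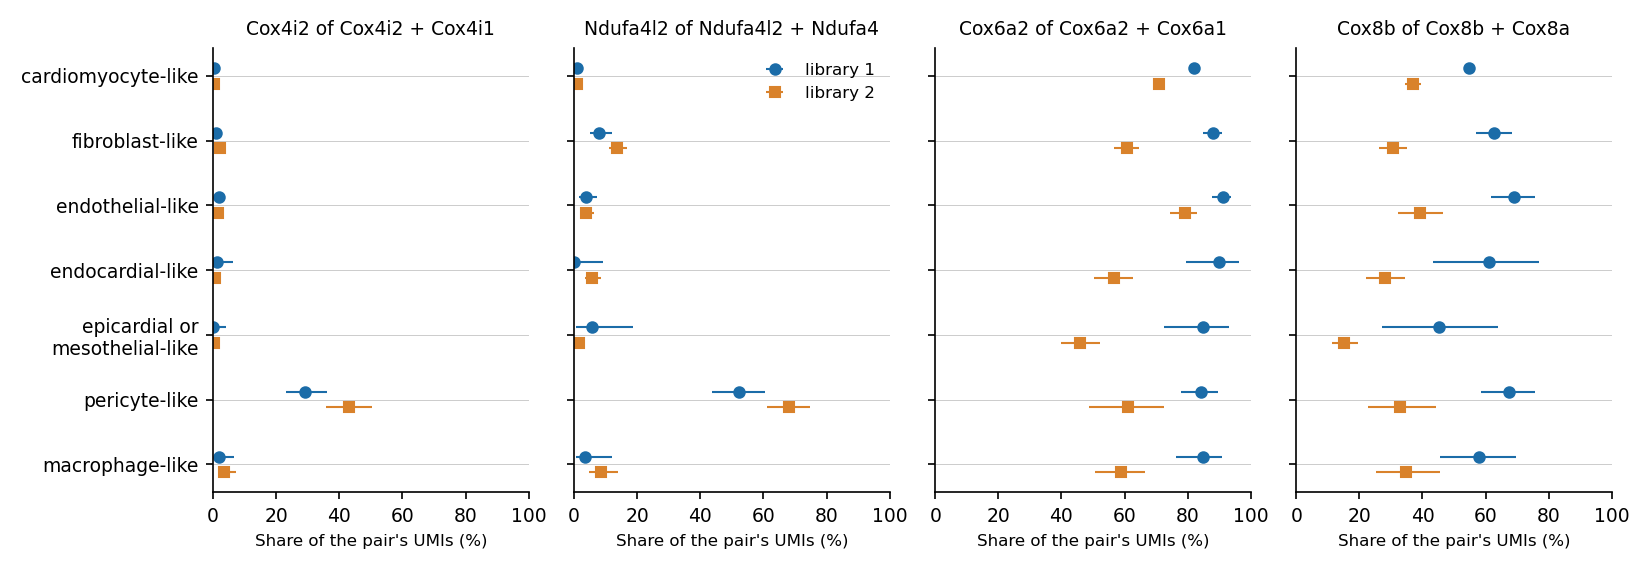
Share of the first isoform in the UMIs of its pair (percent) for 4 pairs in 7 classes, with 1 point per library and 95% Clopper-Pearson intervals. Cox4i2 and Ndufa4l2 stand out in pericyte-like cells (29.2% and 43.0%, 52.1% and 68.2%), while the Cox6a2 share is high in all classes of library 1.

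The muscle isoforms Cox6a2, Cox7a1 and Cox8b are made mainly in heart and skeletal muscle, yet their share was not highest in cardiomyocyte-like cells. Cox6a2 took 81.9% and 70.9% of Cox6a1 and Cox6a2 UMIs in cardiomyocyte-like cells, against 84.3% to 91.2% in the other classes of library 1 and 45.9% to 79.1% in those of library 2. Its level was 206 and 110 CPM in cardiomyocyte-like cells, and 172 to 319 CPM and 39.2 to 122 CPM in the others. Cox8b took 54.8% and 37.0% of its pair with Cox8a in cardiomyocyte-like cells, and Cox7a1 took 47.4% and 22.4% of its pair with Cox7a2. In library 1 the other classes had higher shares of both, except for Cox8b in epicardial or mesothelial-like cells (14 UMIs against 17 of Cox8a). In library 2 only endothelial-like cells had a higher Cox8b share (75 UMIs against 116 of Cox8a). The Cox7a1 share was higher there in endothelial-like, pericyte-like and macrophage-like cells, and lower in the other classes. By the test Cox6a2 differed by 1.2 (SE 0.19, adjusted p = 4.6e-05) and Cox8b by 0.78 (SE 0.15, adjusted p = 3.3e-04), while Cox7a1 at 0.32 did not pass (SE 0.19, adjusted p = 0.17). The common forms were higher too, Cox6a1 by 1.08 (SE 0.13, adjusted p = 3.5e-06), Cox7a2 by 0.70 (SE 0.16, adjusted p = 0.0015) and Cox8a by 0.68 (SE 0.13, adjusted p = 3.5e-04). Cox6a2 overlaps Itgad on the opposite strand.

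Levels of these isoforms outside cardiomyocytes can be set beside those of cardiomyocyte markers. The median of the 6 other classes, as a percent of the cardiomyocyte-like level, was 7.91% in library 1 and 1.32% in library 2 for Ttn. Ryr2 gave 13.4% and 2.64%, Myh7 3.71% and 1.43%, and Pln 33.5% and 8.42%. The highest of the 12 cardiomyocyte markers were Myl2 (66.1% and 25.4%), Actc1 (88.5% and 25.1%) and Myl3 (96.7% and 32.4%), all sarcomere genes. Cox6a2 gave 100% and 39.0%, Cox8b 109% and 57.7%, and Cox7a1 175% and 75.8%. Ndufaf4 gave 24.7% and 18.8% and Cox7b2 13.1% and 6.02%. In each library the muscle isoforms of respiratory genes, set against their cardiomyocyte-like level, had a median in the other classes at least as high as that of Myl3. These percentages were higher in library 1 than in library 2, and in library 1 the medians of those 3 isoforms were at or above the cardiomyocyte-like level. Mb, the myoglobin gene, gave 155% and 57.0%. The common isoforms Cox6a1, Cox7a2, Cox8a and Cox4i1 gave 71.1% to 172% in library 1 and 62.6% to 115% in library 2. High percentages were thus not particular to the muscle isoforms. How far the levels in other classes come from free cardiomyocyte RNA was not tested.

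**Figure D4:**
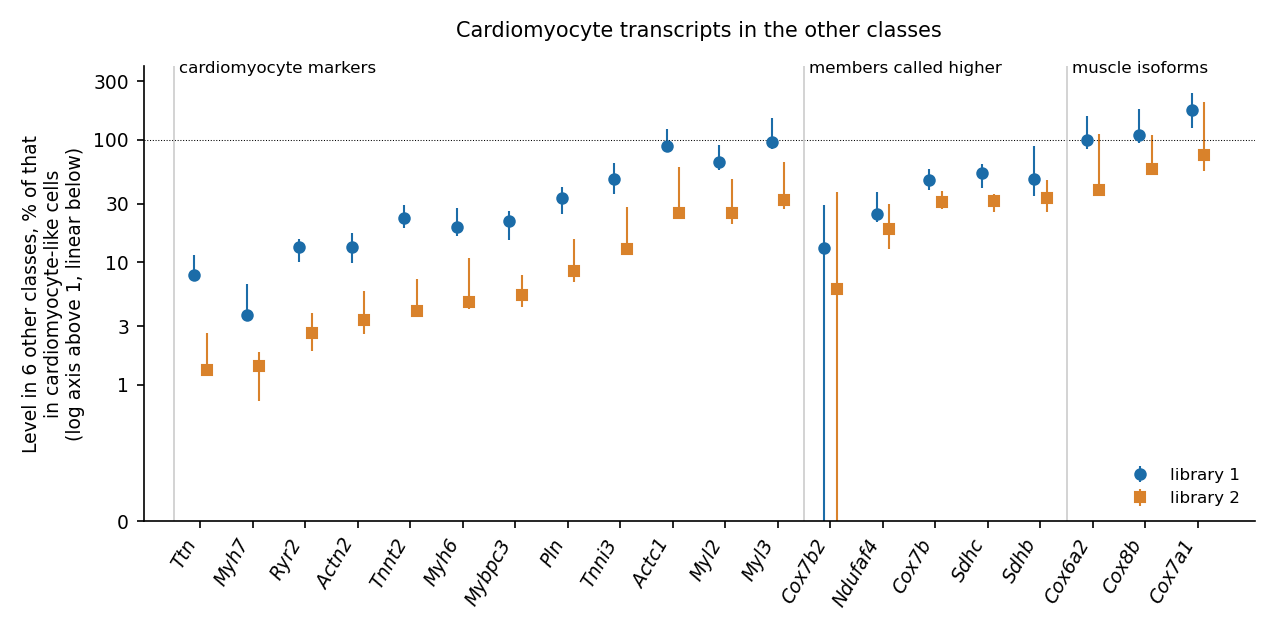
Level in the 6 other classes as a percent of that in cardiomyocyte-like cells (log axis above 1, linear below) for 12 cardiomyocyte markers, 5 members called higher and 3 muscle isoforms, with a point at the median and bars from the lowest to the highest class in each library. Ttn lies at 7.91% and 1.32%, and Cox7a1 at 175% and 75.8%.

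Endothelial-like cells were higher in 27 nuclear members and lower in 0 (15.9% and 12% of all genes), and higher in 12 of 13 mitochondrially encoded members. The 3 largest nuclear differences were Cox7a1 (0.97, SE 0.22, adjusted p = 0.0030), Cox6a2 (0.95, SE 0.20, adjusted p = 0.0023) and Cox5b (0.84, SE 0.18, adjusted p = 0.0019). The first pair are muscle isoforms, and endothelial-like cells also had the highest summed cardiomyocyte markers of the 6 classes, 13410 and 4702 CPM, whose part was not tested. Epicardial or mesothelial-like cells were higher in 21 and lower in 7 (20.5% and 15.7%), and higher in 12 mitochondrially encoded members. Ndufaf1, a complex I assembly factor, stood at 35.1 and 32.2 CPM there (7 and 102 UMIs) against 6.35 to 19.1 CPM elsewhere. The values did not overlap, and the log2 difference was 1.71 (SE 0.22, adjusted p = 2.5e-05). Counts in library 1 were low, with 2 UMIs in endocardial-like and 3 in macrophage-like cells. Ndufa1 (1.15, SE 0.21, adjusted p = 4.4e-04) and Atp5e (0.88, SE 0.14, adjusted p = 2.0e-04) were also higher, while Cox4i2 (-2.45, SE 0.74, adjusted p = 0.017) and Ndufaf4 (-1.02, SE 0.20, adjusted p = 0.0011) were lower. Cox4i2 had only 0 and 2 UMIs there, and its mean of the rest includes the high pericyte-like level. Cox4i2 and Ndufaf4 each lost the call under 2 of 13 alternatives.

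Fibroblast-like cells were lower in 45 nuclear members and higher in 0 (12.8% and 16.5% of all genes), with a median of -0.45. No mitochondrially encoded member passed in either direction, their median being -0.24. The largest differences were Atp5sl (-1.71, SE 0.27, adjusted p = 1.6e-04) and Ndufb10, a complex I subunit (-0.83, SE 0.17, adjusted p = 0.0013). With cells marked as doublets kept, a large fibroblast cluster lost its name, and the counts were 1 lower in fibroblast-like and 0 higher in endothelial-like cells. With plain CPM 18 were lower in fibroblast-like cells. Macrophage-like cells were lower in 17 and higher in 1 (10.6% and 16.9%), and with plain CPM in 0 and 3. The 1 higher was Atp5o, the stalk subunit of ATP synthase, at 458 and 220 CPM against 89.3 to 240 CPM elsewhere, the highest class in each library, with a log2 difference of 0.93 (SE 0.13, adjusted p = 4.1e-05). A second gene model of the same name overlaps Atp5o, so its count is uncertain to that extent. Ndufaf1 (-1.08, SE 0.33, adjusted p = 0.025, from 3 and 13 UMIs) and Ndufs6 (-0.78, SE 0.26, adjusted p = 0.038) were lower. The Ndufs6 call was lost under 7 of 13 alternatives, with values from -1.14 to -0.21. Endocardial-like cells were higher in 1 and lower in 4 nuclear members (13.4% and 8.75%), and higher in 5 mitochondrially encoded members. The 1 higher there was Cox7b2 (1.81, SE 0.55, adjusted p = 0.028), which differed by 0.25 in library 1 and 2.23 in library 2. Sdhb (-0.81, SE 0.19, adjusted p = 0.0068) and Uqcrc1 (-0.80, SE 0.22, adjusted p = 0.016) were lower there.

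Within the cardiomyocyte-like class, nuclear respiratory levels moved with depth and with the mitochondrial share. Cells were split into 4 bins of equal size inside each library, and levels were taken as CPM of the UMIs that are not mitochondrially encoded. From the shallowest to the deepest bin the nuclear sum went from 10194 to 7140 in library 1 and from 7783 to 5863 in library 2. From the lowest to the highest mitochondrial share it went from 7006 to 10191 and from 5763 to 7994. The 3 muscle isoforms together went from 261 to 514 and from 121 to 245 over the same bins, and Malat1 from 6.67% to 5.23% and from 5.77% to 4.27%. Cells with a higher mitochondrial share therefore had a higher share of nuclear respiratory UMIs and a lower share of Malat1 in both libraries. Median UMIs per cell fell from 6936 to 3314 and from 9874.5 to 5578 over the same bins, so shares are not amounts per cell. Depth moves along with the mitochondrial share in these cells, and its part was not tested. Cells are not replicates, and these values carry no test.

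**Figure D5:**
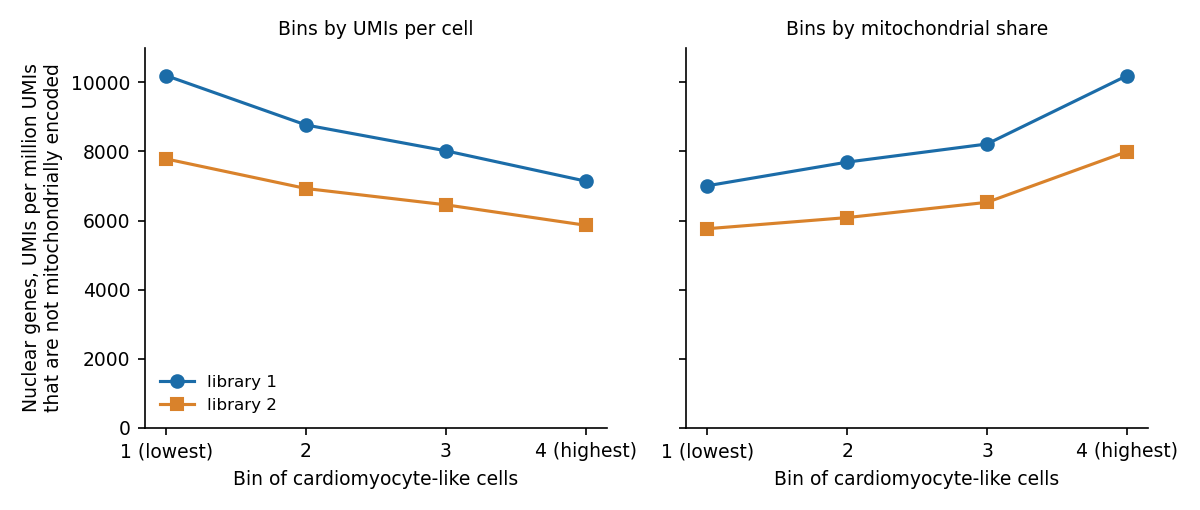
Summed nuclear respiratory chain level (CPM of the UMIs that are not mitochondrially encoded, axis from 0) in 4 equal bins of cardiomyocyte-like cells by UMIs per cell (left) and by mitochondrial share (right), with 1 line per library. The level goes from 10194 to 7140 in library 1 and from 7783 to 5863 in library 2 as depth rises, and goes up with the mitochondrial share in both.

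Other genes of the pathway were read from 7 lists, for cardiomyocyte-like cells against the mean of the rest. In this comparison 35.5% of all tested genes were higher and 31.2% lower. In cardiomyocyte-like cells all 18 tricarboxylic acid cycle genes were higher than the mean of the rest, among them Ogdh (log2 difference 2.42) and Idh3a (2.32), enzymes that feed the chain with NADH. All 12 tested genes of cristae, the folds that hold the complexes, were higher, led by Apoo (2.93), Chchd3 (2.49) and Samm50 (1.48). Of 13 carriers and energy transfer genes 10 were higher and 0 lower, among them the uncoupling protein gene Ucp3 (5.01), the mitochondrial creatine kinase gene Ckmt2 (3.50) and the transhydrogenase gene Nnt (2.54). Of 6 electron carriers outside the rule 5 were higher and 0 lower, with Etfdh at 2.61, Etfa at 1.91 and Cyc1 at 1.44. Further assembly and stability genes gave 31 higher and 1 lower of 43. The highest were Lyrm7 (2.96), Cox10 (2.81) and Uqcc1 (2.0), and the 1 lower was Coa3 (-0.83, adjusted p = 0.0097).

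Genes that maintain and express mitochondrial DNA gave 16 higher and 1 lower of 26. Fastkd1 (2.47), Lrpprc (1.95) and Tfb1m (1.90), which act on mitochondrial RNA or ribosomes, were the highest. The DNA polymerase gene Polg was lower (-0.31, adjusted p = 0.048), and Tfam, which packages mitochondrial DNA, stood at 12 and 13.9 CPM with a log2 difference of 0.29 that did not pass (adjusted p = 0.13). Among 15 regulators of these genes 10 were higher and 1 lower. Esrrb (5.55), Ppara (5.10) and Esrrg (4.44), nuclear receptors of oxidative metabolism, had the largest differences. Ppargc1a, their coactivator, stood at 1158 and 1603 CPM in cardiomyocyte-like cells against 190 and 76.4 CPM in fibroblast-like cells, with a log2 difference of 4.34 (SE 0.22, adjusted p = 4.4e-10). Nrf1 was the 1 lower, at 112 and 113 CPM against 208 and 238 CPM in fibroblast-like cells, with a log2 difference of -0.41 (SE 0.14, adjusted p = 0.016). Over the 7 lists 102 genes were higher and 3 lower, where 35.5% and 31.2% of all tested genes were. With plain CPM the counts were 67 and 19, where 18.9% and 51.0% of all genes were higher and lower.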

How the data were processed

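The deposited counts are UMIs for each gene in each barcode, with no normalization. Per the file headers, Cell Ranger 6.0.0 wrote them. Also named in the submitters' processing notes are fastp, Trimmomatic, Seurat, edgeR and the build GRCm38 (mm10), without roles. Barcode suffixes 1 and 2 were matched to the sample titles by their last digit, and classes of 1 library are paired by coming from 1 suspension. Total counts per library were 57982200 and 50199793 UMIs.

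Computed here, with Python 3.11.15 (numpy 2.4.6, scipy 1.17.1, pandas 2.3.3, scikit-learn 1.9.0, leidenalg 0.10.2): cells with at least 500 UMIs, 200 genes and at most 25% mitochondrial counts were kept (22137 of 22183). Simulated doublets marked 614 and 520 barcodes, and 44.3% and 47.9% of the simulated doublets exceeded the threshold, which leaves room for unmarked doublets. After their removal, with clusters of at least 40% marked cells, 20724 cells were clustered (Leiden, resolution 1, 30 components, 2000 variable genes), leaving out 245 respiratory and pathway genes. The 33 clusters were named from marker lists by a scoring rule set after the data were seen, and unnamed ones entered no test. They held 13.1% and 2.78% of kept cells.

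Counts summed per class and library (14 sums, residual degrees of freedom 6) were tested with edgeR 4.0.16 in R 4.3.3 (quasi-likelihood, TMM, filterByExpr, library as replicate block, Benjamini-Hochberg over 14311 genes). The biological coefficient of variation was 0.152. Per-library log2 differences used a prior count of 2. DESeq2 1.42.0 was an alternative. The fit was also run on simulated counts in which few genes differed between classes, with no library effect. That run does not bear on the scaling between classes. Intervals are exact Clopper-Pearson at 95%.

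Members and lists were chosen with earlier results of these data known. Named genes are the isoform pairs, all mitochondrially encoded members, the 2 nuclear members per complex and among assembly factors with the highest mean CPM, the 10 with the largest higher and 5 with the largest lower difference in cardiomyocyte-like cells, the 3 and 2 in each other class, and 3 per pathway list, among those called. Not every gene named by this rule is reported here. Ndufs5, Ndufa5, Atp5l, Atp5h and Sdhaf4, and further genes whose values stand in the text, were chosen after their values were seen.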

Additional observations from a re-analysis of the deposited data

How the results depend on the processing

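Alternatives changed 1 choice at a time. Counts of calls could not be fitted from 1 library, since no residual degrees of freedom remain, so leaving out a library gives medians and levels only. Leaving out either library, the nuclear median in cardiomyocyte-like cells (0.68) ranged from 0.33 to 0.88 and the mitochondrially encoded median (-1.10) from -1.28 to -1.20. The order of values below is cardiomyocyte-like nuclear higher (71 in the report), lower (6) and mitochondrially encoded lower (13), then other pathway genes and other classes.

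Without the replicate block, counts were 42, 3 and 6, with 0 other pathway genes lower. Fibroblast-like nuclear lower was then 2, endothelial-like nuclear and mitochondrially encoded higher 0 and 0, endocardial-like nuclear higher and lower and mitochondrially encoded higher 0, 0 and 0, epicardial or mesothelial-like 3, 3 and 4, pericyte-like nuclear lower and mitochondrially encoded lower 0 and 0, and macrophage-like nuclear higher and lower 0 and 1. In pairs without the block, nuclear members higher were 38 against fibroblast-like, 22 endothelial-like, 29 endocardial-like, 25 epicardial or mesothelial-like, 25 pericyte-like and 33 macrophage-like cells. Mitochondrially encoded members lower were 1 against fibroblast-like, 6 endothelial-like, 6 endocardial-like, 0 pericyte-like and 1 macrophage-like cells. With plain CPM, counts were 32 and 18, with 67 and 19 other pathway genes, medians of 0.079 and -1.70, fibroblast-like lower 18 and macrophage-like higher 3 and lower 0. In pairs with plain CPM, nuclear members higher were 39, 16, 29, 22, 19 and 26 in the order above, and mitochondrially encoded members lower were 13 against fibroblast-like and 13 against pericyte-like cells. Plain CPM also turned Ndufa4 (0.38) to -0.22, Cox7a2l to -0.17 and Cox6c to -0.14, and leaving out a library, Ndufa4 ranged from -0.0027 to 0.62. With DESeq2 size factors, 5 other pathway genes were lower, the mitochondrially encoded median was -1.25, macrophage-like lower was 5 and 8 mitochondrially encoded members were lower against pericyte-like cells. With DESeq2 as the test, the values were 6 other pathway genes lower, -1.25, endocardial-like higher 0 and macrophage-like lower 1.

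With no filter on low counts, nuclear lower was 3, other pathway genes lower 1, the mitochondrially encoded median -1.02, endocardial-like lower 7 and pericyte-like mitochondrially encoded lower 5. Keeping marked cells gave 46 higher, 5 other pathway genes lower, medians of 0.36 and -1.18, fibroblast-like lower 1, endothelial-like 0 and 7, endocardial-like higher 0 and lower 9, epicardial or mesothelial-like lower 4, pericyte-like lower 2 and 2 and macrophage-like lower 2. In pairs it gave 37 nuclear higher and 13 mitochondrially encoded lower against fibroblast-like cells and 9 lower against pericyte-like cells. A large fibroblast cluster lost its name there and at resolution 2, which gave fibroblast-like lower 28, macrophage-like lower 8, pericyte-like lower 2, a mitochondrially encoded median of -1.19 and 13 lower against fibroblast-like cells. At resolution 0.5 epicardial or mesothelial-like lower was 4, macrophage-like lower 28 and the mitochondrially encoded median -1.04. With no mitochondrial limit endothelial-like higher was 16, endocardial-like mitochondrially encoded higher 3, macrophage-like lower 8 and the median -1.16, and at 1000 UMIs or more pericyte-like lower was 2. Where no cause is named, the cause was not tested. Of 67 named genes in cardiomyocyte-like cells, 44 kept their call and sign under all alternatives with a test, 21 lost the call under at least 1, 2 gained one and 3 changed sign.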

Other observations

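A few groups of cells outside the tests, mostly from library 1, had higher nuclear respiratory chain levels in that library than any tested class. Their mitochondrially encoded levels were also higher in library 1, except in the cluster left unnamed for its depth. Atrial cardiomyocyte-like cells of library 1 (81 cells) held 28374 CPM of nuclear and 34013 CPM of mitochondrially encoded members, and the 7 such cells of library 2 held 9335 and 8992 CPM. Their Cox6a2 share was 96.6% in library 1. A cluster left unnamed for its depth (927 cells of library 1, a median of 558 UMIs) held 21348 and 17574 CPM, with 45741 CPM of cardiomyocyte markers. Cells with hepatocyte transcripts (272 cells of library 1) held 34794 and 65625 CPM. Smooth muscle-like cells held 18344 and 24737 CPM in library 1 and 6061 and 6351 CPM in library 2. Each value rests on few cells or on 1 library, and no test was made.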
